A study of Mus musculus with 12 samples.

Results

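The mitotic spindle, kinetochore and cytokinesis genes described here are a set of 55 genes chosen by their known roles in cell division. The choice was made with earlier results of these data known. They span the kinases and cyclins that start mitosis, the kinetochore, the spindle checkpoint, the chromosomal passenger complex, spindle motors, cytokinesis, anaphase onset and chromosome structure. Of the 55 genes, 52 were measured, out of 12393 genes with a probe set on the array, and Ccnb1, Cdca8 and Espl1 were not analysed here. For each gene the probe set with the highest mean log2 signal over all arrays was used.

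RNA was measured on 12 Affymetrix Mouse Genome 430A 2.0 arrays, with 3 arrays for each of 4 groups of mouse embryonic fibroblasts (MEFs) of the C57BL/6 strain. TF group 1 carried lentiviruses for GATA4, TBX5 and MEF2C, TF group 2 carried these and Mesp1 and SMARCD3, and TF group 3 carried all of these and MYOCD and SRF. The negative control carried only the lentivirus for M2rtTA, the transactivator that answers to doxycycline, and the cells of every TF group carried it too. All 4 groups were kept with doxycycline for 7 days, in a medium that also held valproic acid and extra fetal bovine serum. Total RNA of the whole culture was then taken, so any cells that took up no factor were part of each TF sample. The 3 arrays of each group are labelled as biological replicates, and no label says that they came from separate embryos or dishes, so the p-values measure the spread between these samples, which may be technical. All 3 comparisons with the negative control rest on the same 3 control arrays, and with whole cultures fewer dividing cells and less mitotic RNA per cell cannot be told apart.

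A cell that enters mitosis condenses its chromosomes, builds a spindle of microtubules, and attaches each chromosome to it through the kinetochore, a protein assembly on the centromere. The spindle checkpoint holds anaphase until the attachments are complete, after which the anaphase-promoting complex marks securin and the mitotic cyclins for destruction and the cell divides by cytokinesis. Many of these genes are transcribed mainly in G2 and mitosis, through the factors B-Myb, FOXM1 and NF-Y, so that their RNA is abundant in a dividing culture of fibroblasts and scarce in a resting one.

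Transcription of this kind is read from a short promoter element, the cell cycle genes homology region (CHR), together with CCAAT boxes that bind NF-Y. RefSeq promoter windows (GRCm38.p6, 250 bases before to 50 after the start site) were at hand for 44 of the 52 measured genes, as 49 windows, since 4 genes had more than 1 window. The CHR letters TTTGAA or TTCGAA stood on either strand in 71.43% of the 49 windows, against 19.23% of all 32851 windows and 14.65% of the 12567 windows of genes on the array. Within 50 bases of the start site they stood in 63.27% of the mitotic windows, against 5.31% of all windows. CCAAT stood on either strand in 77.55% of the mitotic windows, against 37.41% of all windows, and at 2 or more positions in 53.06%, against 11.7%. In windows of genes on the array these shares were 37.12% and 13.15%. An E2F motif (the letters TTTCGCG, or alternatively TTTGGCG, or else the letters TTTCCCG, on either strand) stood in 14.29% of the mitotic windows. It stood in 5.58% of all windows and in 8.31% of the windows of genes on the array. These shares describe letters in a window, not bound sites, and the windows of a gene with several starts share bases. On the other strand a CHR with TTTGAA is written TTCAAA, and the CCAAT box is written ATTGG.

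The sequences below run 5′ to 3′ on the strand of the gene, over 120 bases before and 30 bases after the start site in GRCm38.p6, and capitals mark the CHR, CCAAT and E2F letters. They belong to the 6 genes that the results turn on: Birc5 and Bub3 at the ends of the range of change, Ccnb2 as a B-type cyclin, and Cenpa, Spag5 and Bub1, which differed between TF groups.
Birc5: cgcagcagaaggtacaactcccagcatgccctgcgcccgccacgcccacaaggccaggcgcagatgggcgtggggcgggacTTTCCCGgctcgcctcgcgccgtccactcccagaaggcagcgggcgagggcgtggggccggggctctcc
Ccnb2: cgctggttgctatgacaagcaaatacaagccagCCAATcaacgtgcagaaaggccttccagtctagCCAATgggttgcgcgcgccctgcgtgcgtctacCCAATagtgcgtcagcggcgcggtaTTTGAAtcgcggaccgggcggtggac
Cenpa: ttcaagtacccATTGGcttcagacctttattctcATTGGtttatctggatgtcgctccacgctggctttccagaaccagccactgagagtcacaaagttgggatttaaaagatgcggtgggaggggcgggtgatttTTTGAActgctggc
Spag5: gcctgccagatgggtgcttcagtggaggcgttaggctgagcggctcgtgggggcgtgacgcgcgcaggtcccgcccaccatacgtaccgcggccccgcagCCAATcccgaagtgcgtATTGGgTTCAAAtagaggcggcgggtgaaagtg
Bub1: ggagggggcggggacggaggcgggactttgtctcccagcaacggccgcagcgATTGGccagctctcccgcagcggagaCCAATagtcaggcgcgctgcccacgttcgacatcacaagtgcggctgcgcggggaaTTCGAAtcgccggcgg
Bub3: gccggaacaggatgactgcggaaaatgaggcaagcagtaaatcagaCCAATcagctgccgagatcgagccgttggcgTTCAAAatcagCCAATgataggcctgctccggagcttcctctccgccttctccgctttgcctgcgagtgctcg
The Birc5 stretch (chr11:117849117-117849266, plus strand) held neither a CHR nor a CCAAT box, only E2F letters at position -39 from the start site. In Ccnb2 (chr9:70421525-70421674, minus strand) CCAAT boxes stood at -87, -54 and -21 and a CHR at 5. Cenpa (chr5:30666766-30666915, plus strand) had CCAAT boxes at -109 and -86 and a CHR at 17, and Spag5 (chr11:78301471-78301620, plus strand) had boxes at -20 and -3 with a CHR at 4. Bub1 (chr2:127831830-127831979, minus strand) held CCAAT boxes at -68 and -42 and a CHR at 15. Bub3 (chr7:131560250-131560399, plus strand), the gene with the smallest change of the set, held boxes at -74 and -32 and a CHR at -43 in the first of its windows. Letters outside these stretches are not shown, and whether the elements bear on the size of a gene's change was not tested.

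**Figure D1:**
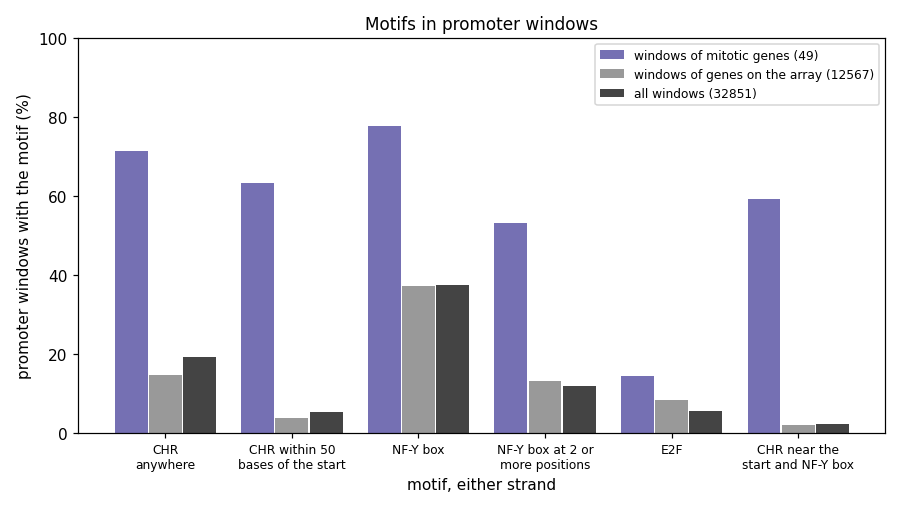
Share of promoter windows (%) that hold each motif on either strand, for the 49 windows of mitotic genes, the 12567 windows of genes on the array and all 32851 windows. The bars of the mitotic genes stand above both others for each motif, with 63.27% against 5.31% of all windows for a CHR within 50 bases of the start site.

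The arrays were first compared as wholes. Array medians lay between 143.06 and 149.73 on TF arrays and between 131.45 and 139.6 on negative control arrays. RNA of fibroblast genes was present in every group. Col1a2 and Vim had mean log2 signals of 13.60 to 13.99 in all 4 groups, and the summed signal of 10 fibroblast genes was 70145.1 to 90816.8 on TF arrays and 76155.2 to 79495.6 on negative control arrays. Among the 10, S100a4 (-0.60, -0.94 and -1.30), Pdgfra (0.09, -0.89 and -1.29) and Pdgfrb (-0.40, -0.67 and -0.59) were called lower, S100a4 in all 3 TF groups and the others in TF groups 2 and 3. Summed macrophage signals were 702.5 to 875 on TF arrays and 696.4 to 788.6 on negative control arrays (9 genes). Among these, Cd53 was higher in each TF group (2.21, 1.67 and 2.16) and Lyz1 lower (-3.29, -4.02 and -4.01), as was Lyz2 in TF groups 2 and 3 (-2.03 and -1.50). Endothelial sums were 119.2 to 204.2 on TF arrays and 124.9 to 215.3 on negative control arrays (6 genes, with Pecam1 and Tie1 below a signal of 32 in every group). The summed epithelial signal was 730.6 to 903.6 on TF arrays and 527.1 to 601.4 on negative control arrays (5 genes), without overlap. The 5 genes did not move together. Their log2 changes spanned -1.16 to 2.16 (TF group 1), -1.45 to 2.34 (TF group 2) and -0.82 to 1.60 (TF group 3). Upward calls numbered 2, 1 and 2 for these groups in turn, against 1, 1 and 0 downward calls. Whether epithelial cells had a part in the changes below was not tested. The log2 ratio of the 3' to the 5' probe set of actin was 0.10 to 0.16 on TF arrays and 0.04 to 0.07 on negative control arrays. Poly-A spikes, foreign transcripts added before amplification, averaged 8.16 on TF arrays and 7.35 on negative control arrays on the log2 scale (exact permutation test, two-sided, p = 0.00455, the smallest that 220 splits allow). Scaled to those spikes, the median of all 12393 genes was at log2 changes of -0.83, -0.68 and -0.74 in TF groups 1, 2 and 3. On the scale as deposited it was at 0.07, 0.06 and 0.05. Of the 10 fibroblast genes, 7, 8 and 8 were called lower scaled to the spikes, where 55.3%, 44.4% and 48.4% of all genes were. Values below are given with both scalings where it matters.

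The first question was how the mitotic genes differed between each TF group and the negative control. All 52 measured genes were lower in TF group 1, in TF group 2 and in TF group 3, and for each gene every TF array lay below every negative control array. Among all 12393 genes, 8.93% were called lower in TF group 1, 10.1% in TF group 2 and 9.84% in TF group 3, while 15.1%, 15.3% and 14.7% were called higher. All arrays of the TF group lay below all negative control arrays in 22.5% of all genes for TF group 1, 24% for TF group 2 and 23.6% for TF group 3. A gene was called at a Benjamini-Hochberg adjusted p under 0.05 in limma and a fold change over 1.5. Median log2 changes of the members were -2.40 (TF group 1), -2.71 (TF group 2) and -2.45 (TF group 3), which is 5.27-, 6.56- and 5.47-fold lower. Folds ran over 1.91 to 12.4 in TF group 1, 1.87 to 17.1 in TF group 2 and 1.85 to 14.4 in TF group 3. With the arrays scaled to the poly-A spikes all 52 were again lower in each TF group (medians -3.30, -3.45 and -3.24), where 55.3%, 44.4% and 48.4% of all genes were called lower and 2.74%, 4.14% and 3.53% higher.

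The set stood near the bottom of the array. Since its members were chosen with earlier results of these data known, the rank describes them and is not a test. Ranked by the average log2 change over the 3 TF groups, 18 of the 50 lowest genes, 32 of the 100 lowest and 44 of the 200 lowest of 12393 were members, and 51 members were among the 500 lowest. Birc5 was 4th, Mki67 7th and Bub1 8th, whereas Bub3 was 816th. Between the level in the negative control and the average change the Pearson correlation was -0.04 and the Spearman correlation -0.06 across the 52 genes, which share arrays and are not independent replicates. Genes with a CHR within 50 bases of the start site had a median average change of -2.59 (29 genes), and those without one had -2.49 (15 genes).

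**Figure D2:**
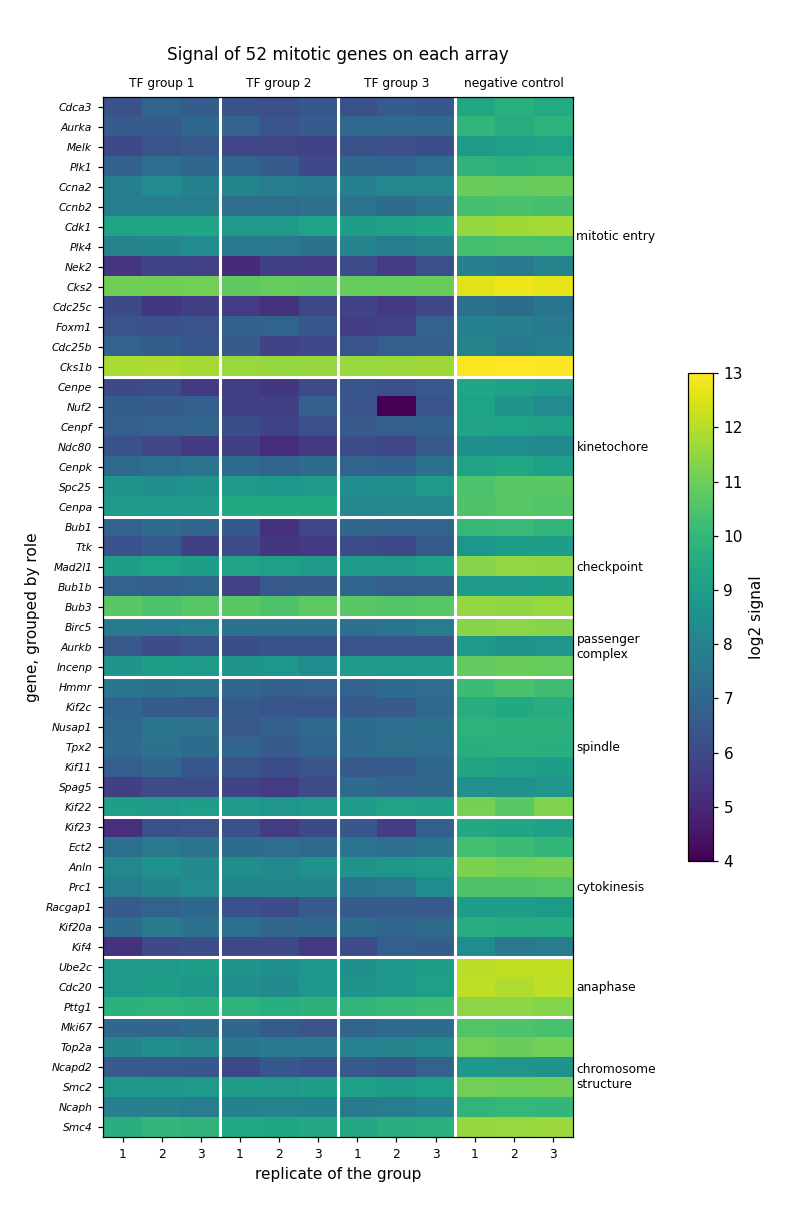
Log2 signal (colour) of each of the 52 measured mitotic genes (rows, grouped by role and ordered by change within a role) on each of the 12 arrays (columns, 3 replicates per group). In every row the 9 TF arrays are darker than the 3 negative control arrays, and the darkest cell is Nuf2 in replicate 2 of TF group 3, at a signal of 10.7.

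Mitosis starts when CDK1 bound to a cyclin is switched on. In this role 14 kinases, cyclins and their regulators were measured, not all of which act on that step. Each was lower in every TF group, with a median average log2 change of -2.52. Ccnb2, a B-type cyclin, had signals of 233, 228 and 219 (TF group 1), 149, 149 and 162 (TF group 2) and 171, 144 and 173 (TF group 3), against 1290.1, 1376 and 1289 in the negative control. Its log2 changes of -2.54, -3.10 and -3.02 (SE 0.08) were larger than the spread between arrays. Aurka, the kinase of the spindle poles, had signals of 96.7, 99.3 and 128 (TF group 1), 117, 81.8 and 95.2 (TF group 2) and 133, 135 and 134 (TF group 3), against 979, 775 and 896 in the negative control. Cdca3, a trigger of mitotic entry, had 75.3, 121 and 98.5 (TF group 1), 77.2, 73.7 and 89.8 (TF group 2) and 75.5, 97.6 and 90.0 (TF group 3), against 680.5, 844 and 717 in the negative control. Cdca3 had the largest average change of this role (-3.09), by 1 of its 3 probe sets. The other 2 were not called, at 0.14, 0.13 and 0.08 and at -0.16, 0.35 and -0.12.

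The smallest change in this role was that of Cks1b, which encodes a small subunit that docks on CDKs. Its signals were 3599.5, 3766 and 3563 (TF group 1), 3116, 3077 and 3037 (TF group 2) and 3128, 3239 and 3388 (TF group 3), against 7628, 8171 and 7848 in the negative control, or log2 changes of -1.11, -1.36 and -1.28 (SE 0.05). The second probe set of Cks1b had log2 changes of -2.01 and -2.16 in TF groups 1 and 2, so the size of its change depended on the probe set. Cks2, its close relative, had signals of 2098, 2111 and 2156 (TF group 1), 1752, 1876 and 1848 (TF group 2) and 1859, 1879 and 2024 (TF group 3), against 6150.1, 7066 and 6479 in the negative control. Its changes of -1.63, -1.84 and -1.77 were nearly the same with its second probe set (-1.61, -1.83 and -1.78). Foxm1, the transcription factor of the G2 genes, also fell, with signals of 79.8, 75.5 and 79.5 (TF group 1), 112, 119.7 and 88.9 (TF group 2) and 49.1, 54.6 and 113 (TF group 3), against 250.1, 243 and 216 in the negative control. Of its 4 probe sets, the one with the lowest mean signal was not called in any TF group (-0.03, -0.67 and -1.19). The remaining members of this role were Cdk1 (-2.40, -2.72 and -2.54), Ccna2, Plk1, Plk4, Melk, Nek2, Cdc25b and Cdc25c, with average log2 changes between -2.94 for Melk and -1.41 for Cdc25b.

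**Figure D3:**
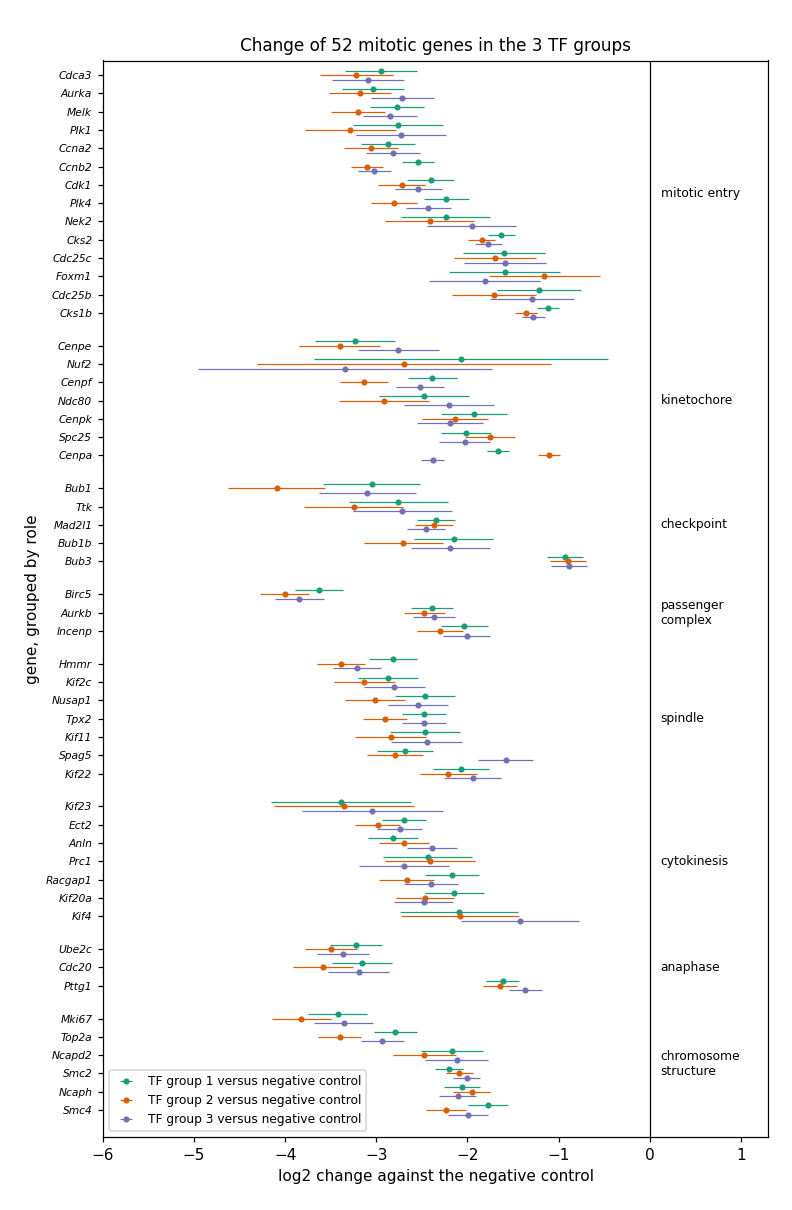
Log2 change of each of the 52 mitotic genes in TF groups 1, 2 and 3 against the negative control (points) with its 95% confidence interval from the limma fit (lines), grouped by role. All intervals lie below 0, and Nuf2 has the widest intervals (SE 0.72).

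The 7 kinetochore genes were lower in every TF group, with a median average log2 change of -2.53. Cenpe, the motor that carries chromosomes to the spindle equator, had signals of 63.7, 72.2 and 46.5 (TF group 1), 51.5, 43.9 and 67.0 (TF group 2) and 84.0, 74.2 and 92.4 (TF group 3), against 631, 560.3 and 505 in the negative control. Spc25, a subunit of the NDC80 complex that grips microtubules, had signals of 402, 369.8 and 386 (TF group 1), 478, 448 and 463 (TF group 2) and 335, 355 and 468 (TF group 3), against 1398, 1645 and 1654 in the negative control. Its partners Ndc80 (-2.47, -2.91 and -2.20) and Nuf2 (-2.07, -2.70 and -3.35) were lower too. Nuf2 was the least certain of the 52: its signals were 102, 98.4 and 104 (TF group 1), 51.0, 52.2 and 108 (TF group 2) and 83.4, 10.7 and 83.5 (TF group 3), against 600.4, 399 and 326 in the negative control, and its adjusted p was 0.0444 in TF group 1. That call was lost with 9 of the 12 arrays left out in turn: any array of TF group 1, TF group 2 or the negative control.

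Cenpa, the histone H3 variant that marks the centromere, had the smallest average change of the kinetochore genes and the clearest order of TF groups. Its signals were 461, 492 and 484 (TF group 1), 711, 707 and 700.3 (TF group 2) and 287, 290.5 and 297 (TF group 3), against 1459.5, 1610.1 and 1492 in the negative control. No 2 of the 4 groups overlapped, and the SDs on the log2 scale were 0.01 to 0.07. Its log2 changes against the negative control were -1.67, -1.11 and -2.38 (SE 0.06).

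The spindle checkpoint held both the strongest single change and the weakest gene. Bub1, a checkpoint kinase of the kinetochore, had signals of 113, 140.3 and 119 (TF group 1), 88.7, 39.9 and 61.1 (TF group 2) and 125, 115 and 118 (TF group 3), against 1012, 1105 and 962 in the negative control. Its log2 change of -4.09 in TF group 2 (SE 0.24) was the lowest of any member against the negative control, although its second and dimmer probe set was not called in any TF group (-0.67, -0.57 and -0.82). Mad2l1, which inhibits the CDC20 form of the anaphase-promoting complex, had signals of 532, 603 and 529 (TF group 1), 584, 549.6 and 505 (TF group 2) and 495, 486 and 565 (TF group 3), against 2616, 2951 and 2885 in the negative control. The 3 TF groups overlapped in Mad2l1, at log2 changes of -2.35, -2.37 and -2.45 (SE 0.09). Bub1b and Ttk had average changes of -2.35 and -2.91.

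Bub3, the checkpoint protein that carries BUB1 and BUBR1 to the kinetochore, had signals of 1666, 1429 and 1629.6 (TF group 1), 1659, 1449.8 and 1726 (TF group 2) and 1654, 1539 and 1667 (TF group 3), against 2971, 2882 and 3158 in the negative control. The TF arrays overlapped among themselves and all lay below the control arrays, at log2 changes of -0.93, -0.90 and -0.89 (SE 0.09). The other 3 probe sets of Bub3 were not called. The brightest of them had log2 changes of 0.10, 0.12 and 0.06 (SE 0.22), and with all 4 probe sets averaged Bub3 had -0.57, -0.53 and -0.31 (adjusted p = 0.06496, 0.08279 and 0.3149 in limma), so its call rests on 1 probe set.

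The chromosomal passenger complex corrects wrong attachments and later guides cytokinesis, and its 3 measured genes were lower in every TF group. Birc5 (survivin) had signals of 200.5, 216 and 229 (TF group 1), 168, 162 and 166 (TF group 2) and 159, 174 and 228 (TF group 3), against 2618, 2742 and 2610.1 in the negative control. The average log2 change of Birc5 was the largest of the set (-3.83). Aurkb, the kinase of the complex, had 92.2, 69.8 and 78.0 (TF group 1), 71.1, 77.1 and 77.5 (TF group 2) and 78.4, 81.5 and 82.2 (TF group 3), against 452, 390.1 and 411 in the negative control. Incenp, its scaffold, had 401, 512 and 487 (TF group 1), 401, 424 and 336 (TF group 2) and 456, 465 and 495 (TF group 3), against 1816, 2026 and 1868 in the negative control. Set beside each other, the log2 changes were -3.04, -3.18 and -2.71 for Aurka and -2.39, -2.47 and -2.37 for Aurkb.

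Among 7 spindle motors and microtubule-binding proteins the median average change was -2.62. Hmmr, a spindle protein also known as a hyaluronan receptor, had signals of 186, 169 and 175 (TF group 1), 133, 109.8 and 114 (TF group 2) and 114, 142 and 148 (TF group 3), against 1156, 1359 and 1216 in the negative control. Kif22, a motor on chromosome arms, had 512, 482 and 512 (TF group 1), 477, 418 and 477 (TF group 2) and 501, 581 and 569 (TF group 3), against 2286, 1668 and 2473 in the negative control. They mark the ends of the range of this role, with average changes of -3.14 and -2.08. Spag5 (astrin), which stabilises the attachment of microtubules, had signals of 51.7, 66.1 and 66.7 (TF group 1), 57.6, 47.5 and 65.8 (TF group 2) and 142, 124 and 127 (TF group 3), against 378, 387 and 412 in the negative control. Its fall was thus smaller in TF group 3 (-1.58) than in TF groups 1 (-2.68) and 2 (-2.80), with SE 0.14. Kif11, Kif2c, Tpx2 and Nusap1 had average changes between -2.93 and -2.59.

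The central spindle and the contractile ring were read from 7 genes, with a median average change of -2.51. Anln (anillin), a scaffold of the contractile ring, had signals of 291, 386 and 302 (TF group 1), 361, 316 and 382 (TF group 2) and 407, 424 and 481 (TF group 3), against 2393, 2183 and 2270.1 in the negative control. Prc1, which bundles the microtubules of the central spindle, had 221, 273 and 322 (TF group 1), 269.8, 277 and 274 (TF group 2) and 178, 192 and 330.1 (TF group 3), against 1429, 1438 and 1492 in the negative control. Both were separated from the negative control on every array. Kif23, a motor of the centralspindlin complex, had 36.6, 73.5 and 79.7 (TF group 1), 73.2, 48.9 and 64.3 (TF group 2) and 86.7, 49.2 and 103 (TF group 3), against 683, 637 and 567 in the negative control. Kif4, a chromosome-bound motor that works with PRC1, had 39.7, 63.3 and 72.3 (TF group 1), 64.0, 63.0 and 45.9 (TF group 2) and 68.9, 105 and 101 (TF group 3), against 333, 194 and 218 in the negative control. Kif23 (-3.26) and Kif4 (-1.87) had the largest and smallest average change here, each with a wide error (SE 0.34 and 0.29), and Kif20a, Ect2 and Racgap1 lay between them.

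Anaphase onset was represented by 3 genes. Ube2c, the ubiquitin-conjugating enzyme of the anaphase-promoting complex, had signals of 461, 481 and 511 (TF group 1), 401, 364 and 442 (TF group 2) and 364, 439 and 525 (TF group 3), against 4311, 4600.5 and 4645 in the negative control. Cdc20, its activator, had log2 changes of -3.16, -3.59 and -3.19 (SE 0.15). Pttg1 (securin), the inhibitor of separase that the complex destroys, had signals of 859.7, 906 and 878 (TF group 1), 899, 821 and 873 (TF group 2) and 944, 1047 and 1159 (TF group 3), against 2761, 2784 and 2555 in the negative control. The log2 changes of Pttg1 were -1.61, -1.64 and -1.37 (SE 0.08) and those of Ube2c -3.22, -3.49 and -3.37 (SE 0.13), and the difference between these genes was not tested.

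Genes of chromosome structure had the smallest median average change (-2.18, 6 genes). Smc2, a core subunit of condensin, had signals of 449, 451 and 473 (TF group 1), 507, 466 and 517 (TF group 2) and 549.8, 488 and 536 (TF group 3), against 2180.2, 2045 and 2105 in the negative control. Smc4, its partner, had 824, 999 and 924 (TF group 1), 655, 642 and 693 (TF group 2) and 690.5, 803 and 868 (TF group 3), against 3047, 3124 and 3229 in the negative control. The average changes of the condensin genes Smc2, Smc4, Ncapd2 and Ncaph lay in a narrow range, between -2.25 and -2.01. Top2a, the topoisomerase that untangles sister chromatids, had 272, 339.8 and 302 (TF group 1), 183, 207 and 207 (TF group 2) and 256, 261 and 310.0 (TF group 3), against 2164, 1995 and 2145 in the negative control. Mki67, the coat protein of mitotic chromosomes and a common marker of proliferation, had 126, 126 and 146 (TF group 1), 124, 97.5 and 82.9 (TF group 2) and 123, 146 and 146 (TF group 3), against 1489, 1447 and 1324 in the negative control. Its average change of -3.54 was second to that of Birc5.

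The next question was whether the factors added to TF group 1 moved these genes further. Between TF groups few passed the test. In TF group 2 against TF group 1, 3 of the 52 were lower, where 1.78% of all genes were, and none was higher, where 2.08% were. The median difference was -0.27, with 42 of 52 members negative, against 6405 of 12393 genes and a median of -0.01 over all genes. Scaled to the poly-A spikes the median member was at -0.11, all genes were at 0.15, and no member was called. On the scale as deposited, 23 of the 52 had an unadjusted p under 0.05 in limma, 22 lower and 1 higher. Of all 12393 genes 21.7% had one, 1486 lower and 1200 higher.

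Those 3 genes were Bub1, Cenpf and Top2a. Cenpf, a large protein of the outer kinetochore, had signals of 103, 114 and 122 (TF group 1), 71.6, 56.7 and 73.0 (TF group 2) and 91.9, 106 and 111 (TF group 3), against 610.0, 598 and 555 in the negative control. TF group 2 was lower than TF group 1 (log2 difference -0.75, SE 0.12, adjusted p = 0.0048 in limma). Top2a had a limma difference of -0.61 (SE 0.11, adjusted p = 0.00839) and Bub1 one of -1.04 (SE 0.24, adjusted p = 0.03). None of the 3 overlapped between these groups. All TF group 2 arrays lay below all TF group 1 arrays in 22 of the 52 members and in 2080 of all 12393 genes. The call of Bub1 was lost with any array of TF group 1 or replicate 3 of TF group 2 left out, and that of Top2a without replicate 2 of TF group 1 or replicate 1 of TF group 2, whereas Cenpf was called in all 12 such fits. With the replicate number as a block Bub1 was not called in this comparison. The second probe sets of Cenpf (-0.25) and Bub1 (0.11) were not called. Cenpa had a difference of 0.56 in the other direction (SE 0.06, adjusted p = 0.000439 in limma), which fell short of the fold of 1.5.

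In TF group 3 against TF group 2, 3 members were higher, where 2.32% of all genes were, and 1 was lower, where 1.7% were. The median difference was 0.27, with 43 of 52 members positive, against 5951 of 12393 genes and a median of -0.01 over all genes. All TF group 3 arrays lay above all TF group 2 arrays in 23 members, and in 15.4% of all genes. In limma Spag5 was higher by 1.21 (SE 0.14, adjusted p = 0.000772), Bub1 by 0.99 (SE 0.24, adjusted p = 0.0326) and Cenpf by 0.62 (SE 0.12, adjusted p = 0.0113). Cenpa was the one gene called lower, at -1.28 (SE 0.06, adjusted p = 5.47e-06 in limma). At an unadjusted p under 0.05 there were 25 members, 22 higher and 3 lower. Of all 12393 genes 23.7% passed, 1414 higher and 1524 lower. Scaled to the poly-A spikes, Spag5 and Cenpa were still called, and with the replicate number as a block Bub1 was not. The second probe sets of Cenpf (0.26) and Bub1 (-0.26) and the other 2 of Spag5 (0.84 and 0.79) were not called. The calls of Spag5 and Cenpa held in all 12 fits with 1 array left out, that of Cenpf was lost without replicate 2 of TF group 2 or replicate 3 of TF group 3, and that of Bub1 in 5 of the 12 fits (without replicate 3 of TF group 1 or of TF group 2, or any array of TF group 3).

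One array bears on this comparison. In replicate 3 of TF group 3, 45 of the 52 members lay above their group mean, by 0.17 on average on the log2 scale, against 15 members in each of the other 2 arrays of that group. Without this array the members called higher in TF group 3 against TF group 2 numbered 1 (Spag5), the members lower numbered 2 (Cenpa and Foxm1), and the median difference was 0.21.

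**Figure D4:**
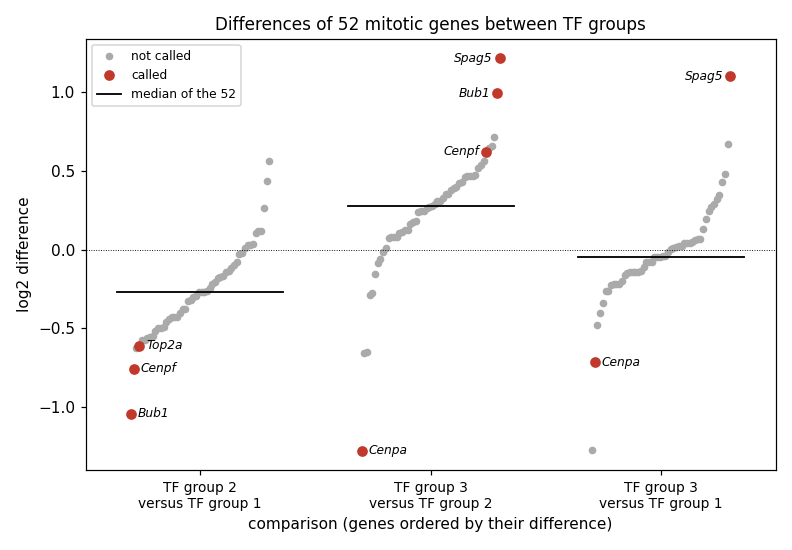
Log2 difference of each of the 52 mitotic genes between TF groups, ordered by size within each comparison, with the median of the 52 (line) and the called genes in red. The medians are -0.27, 0.27 and -0.04, and the unlabelled lowest point of TF group 3 versus TF group 1 is Nuf2 at -1.27, which did not pass the test.

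In TF group 3 against TF group 1, 29 members were negative and 23 positive, with a median of -0.04. Of all 12393 genes 6466 were negative, with a median of -0.02. Without replicate 3 of TF group 3, 36 members were negative and 16 positive, with a median of -0.13, against -0.02 over all probe sets. Foxm1 was then called lower beside Cenpa. Spag5 was higher by 1.10 (SE 0.14, adjusted p = 0.000782 in limma), where 3.26% of all genes were called higher, and Cenpa was lower, at -0.72 (SE 0.06, adjusted p = 5.83e-05 in limma), where 3.05% were called lower. Both calls held with each array left out, but scaled to the poly-A spikes Cenpa was not called and the median was 0.06. Of the other 2 probe sets of Spag5, the brighter had a difference of 0.58 and was not called, and the dimmer was called higher. In both, the TF group 3 arrays lay above all TF group 1 arrays, as they did in 2112 of all 12393 genes. The dimmer one was not called in TF group 3 against the negative control (-0.15).

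**Figure D5:**
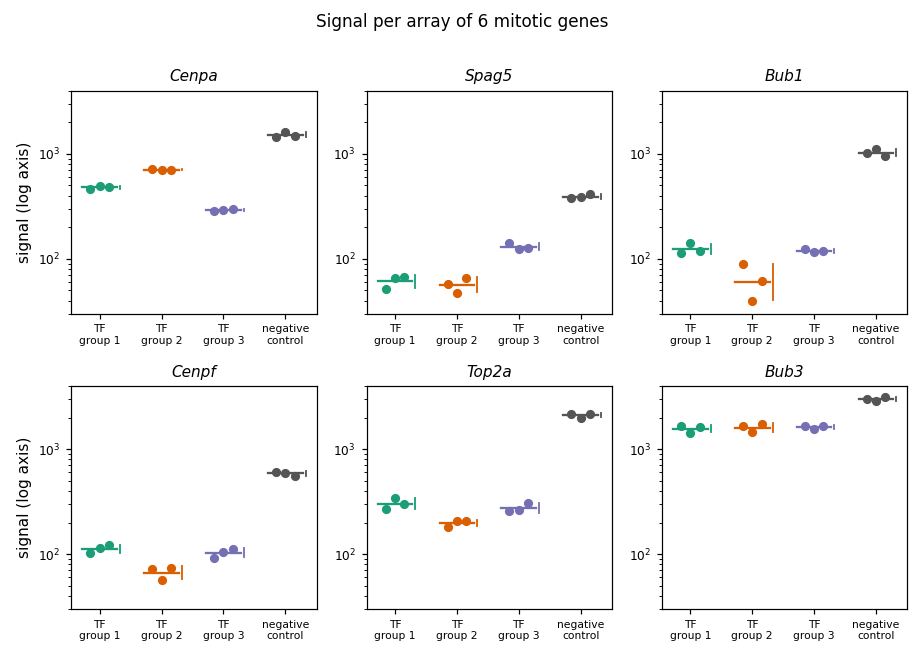
Signal (log axis) of 6 mitotic genes on each array (points), with the geometric mean of the 3 arrays (horizontal line) and 1 SD on the log2 scale either way (vertical line), for TF groups 1, 2 and 3 and the negative control. Cenpa is at 711, 707 and 700.3 in TF group 2 and at 287, 290.5 and 297 in TF group 3, Spag5 is at 124 to 142 in TF group 3 and at most 66.7 in TF groups 1 and 2, and the TF groups overlap in Bub3.

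The other probe sets of the members were read as a check within the array. For 27 of the 52 members there were 45 further probe sets, of which 31, 31 and 29 were lower in TF groups 1, 2 and 3 and none was higher, with medians of -1.63, -1.87 and -1.78. Those not called included all further probe sets of Bub3 and Bub1 and a second probe set of Top2a, whose mean log2 signal over all arrays was 0.17. Of the probe sets that stood for the members, 6 carry the suffix x and 5 the suffix s, which mark probes that may also bind related transcripts. They include those of Aurkb, Cdc20, Incenp, Bub3 and Spag5.

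Genes of the same processes outside the set were counted for comparison. Of 45 other mitotic genes, 29, 30 and 29 were lower in TF groups 1, 2 and 3 and none was higher, with medians of -1.46, -1.47 and -1.48, and 28 were lower in all 3. They include Cdca5 (sororin, which protects cohesion, -3.07, -3.21 and -3.03), Sgo1 (shugoshin, -2.50, -2.91 and -2.67), the checkpoint ATPase Trip13 (-2.65, -2.85 and -2.49) and Ncapg of condensin (-2.64, -2.78 and -2.41). By contrast Zwint of the kinetochore (0.25, 0.15 and 0.17), the microtubule polymerase Ckap5 (-0.21, -0.38 and -0.05) and the kinases Nek6 (0.04, -0.03 and -0.09) and Nek7 (0.11, -0.07 and 0.25) were not called.

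The core of the anaphase-promoting complex, which is present through most of the cycle, was read from 14 genes, with Ube2s counted among them. Of these 14 genes, 2, 3 and 3 were lower and none was higher (medians -0.26, -0.17 and -0.41), or 12, 10 and 13 lower scaled to the poly-A spikes. Of all 12393 genes, 8.93%, 10.1% and 9.84% were called lower on the scale as deposited. Scaled to the poly-A spikes the shares were 55.3%, 44.4% and 48.4%. Ube2s, the enzyme that extends ubiquitin chains and not a core subunit, was the 1 gene of the 14 lower in each TF group (-0.98, -0.91 and -0.74). Anapc2, the cullin subunit, had 0.29, 0.24 and 0.20. Of 9 cohesin genes, 2, 3 and 4 were lower, with Stag1 lower in each (-0.93, -1.19 and -0.99), and the loader Mau2 was higher in TF groups 2 and 3 (0.75 and 0.77), a call that was not made with the poly-A scaling. On that scaling 8, 7 and 7 of the 9 were lower. With arrays centred on their medians 4 were lower in each TF group, where 12.4%, 12.8% and 12.9% of all genes were.

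Regulators of these genes were read last. Mybl2 (B-Myb) had log2 changes of -2.67, -2.30 and -2.08 and Lin9 of the MuvB complex -1.88, -1.81 and -2.14, both called lower in every TF group, whereas Rbbp4 (-0.42, -0.47 and -0.46) and Lin37 (0.35, 0.34 and 0.08) were not called. Scaled to the poly-A spikes, 3, 3 and 4 of these 4 genes were lower, where 55.3%, 44.4% and 48.4% of all 12393 genes were. Of 7 inhibitors and switches of mitotic entry, Wee1 (-1.26, -1.21 and -1.10) and Pkmyt1 (-1.56, -1.72 and -1.38), the kinases that hold CDK1 off, were lower in every TF group, and so was Mastl (-1.41, -1.83 and -1.54), which promotes mitosis. The other 4 were not called on the scale as deposited, and 6 of the 7 were lower in each TF group scaled to the poly-A spikes. None of 7 constitutive genes (Actb, B2m, Hprt, Pgk1, Sdha, Tbp and Ywhaz) was called, with medians of 0.08, -0.02 and 0.00, although 7, 5 and 6 of them were lower scaled to the poly-A spikes.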

How the data were processed

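RNA of mouse embryonic fibroblasts was measured on 12 Affymetrix Mouse Genome 430A 2.0 arrays, 3 in each of 4 groups named in the labels. The deposited values are linear intensities, 1 signal per probe set. The study's methods and the submitters' processing notes name RMA and Partek, which give log2 values, and the method behind the linear values is not given in the sources used here. The design assumed log2 values, so log2 was taken here. Of the deposited probe sets, 64 controls were left out and 22626 tested, of which 20380 have 1 gene symbol in the platform annotation, 691 several and 1555 none. These name 12393 genes, 4956 of them with more than 1 probe set.

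One mean per group was fitted over all 12 arrays with limma 3.58.1 in R 4.3.3 (lmFit, contrasts, eBayes), and p-values were adjusted over all 22626 probe sets by Benjamini-Hochberg. A call needed an adjusted p under 0.05 and a fold over 1.5. The SE of a gene is that of its limma contrast. The members and lists were chosen with earlier results of these data known. Values on every array are given for 28 members: per role the 2 with the highest mean log2 signal and those with the largest and smallest average change, those called between TF groups, and the pairs Cks1b and Cks2, Aurka and Aurkb, and Ccnb2 of the B-type cyclins. Foxm1 and Nuf2 were added after their values were seen. Spots below a signal of 32 were treated as dim, and the number of arrays limits the precision. Promoter windows are from RefSeq (GRCm38.p6).

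The fit was tested on simulated data for TF group 1 against the negative control, with 200 of 22626 probe sets changed in each of 5 simulations. Of log2 changes of 1, 53.2% were recovered, and of log2 changes of 2, 73.8%, and 4.08% of calls were false. The simulated noise was independent between probe sets. In the data 2049 probe sets were called lower and 3088 higher in this comparison, so the shares describe the simulation and may differ in the data. Alternatives changed the moderation, array weights, samples, replicate block, scaling, offset, dim probe sets, thresholds and probe set of a gene, and left out each array in turn.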

Additional observations from a re-analysis of the deposited data

Results flagged for a closer look

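The poly-A spikes, foreign transcripts that are outside the comparisons of genes, averaged 8.24, 8.08 and 8.14 on the log2 scale in TF groups 1, 2 and 3 and 7.35 in the negative control. The difference between TF arrays and negative control arrays was 0.81 (24 probe sets, exact permutation test over 9 and 3 arrays, two-sided, p = 0.00455, the smallest that 220 splits allow). The signal of 18S ribosomal RNA, from 3 control probe sets, averaged 12.44, 12.18 and 12.34 in TF groups 1, 2 and 3 and 11.13 in the negative control, a difference of 1.19 (the same exact test, p = 0.00455). Both were singled out because a signal outside the gene measurements stood above its level in the control arrays. Scaled to the spikes, the 52 mitotic genes were lower in every TF group, as they were on the scale as deposited.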

How the results depend on the processing

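The 52 mitotic genes kept a negative log2 change in every TF group under each alternative except the use of the probe set with the lowest mean, where Incenp had 0.59 and Top2a 0.023 in TF group 1, Cdca3 0.35 in TF group 2 and Spc25 0.68 in TF group 3, and Bub1 turned to 0.11 in TF group 2 against TF group 1 and -0.26 in TF group 3 against TF group 2. The cause was not tested. With that probe set 43 of the 52 were called lower in each TF group, without moderation or with array weights Nuf2 was lost in TF group 1 (51), and at a fold over 2 or with all probe sets averaged Bub3 was lost in each TF group (51). Medians in TF groups 1, 2 and 3 were -2.53, -2.82 and -2.56 with arrays centred on their median, -3.30, -3.45 and -3.24 scaled to poly-A spikes, -2.03, -2.24 and -2.13 with an offset of 50, -2.15, -2.39 and -2.20 with all probe sets averaged, and -2.12, -2.36 and -2.19 with the lowest probe set. With the spikes the median was -0.11 in TF group 2 against TF group 1 and 0.062 in TF group 3 against TF group 1. Members lower in TF group 2 against TF group 1, 3 as reported, numbered 0 with only these groups in the fit or scaled to the spikes, 1 with the offset, a fold over 2 or the lowest probe set, and 9 with no fold threshold. The gene called with the lowest probe set was Hmmr, and with all probe sets averaged the 2 called were Incenp and Hmmr, so Cenpf, Bub1 and Top2a were called under neither. Members higher there, 0 as reported, numbered 1 with median centring or no fold threshold. Members higher in TF group 3 against TF group 2, 3 as reported, numbered 1 with only these groups, the spikes, a fold over 2 or averaged probe sets, 0 with the lowest probe set, 5 with no fold threshold and 6 at an unadjusted p, where 2 were lower. In TF group 3 against TF group 1, members lower, 1 as reported, numbered 0 with the spikes or a fold over 2 and 2 with no fold threshold, and members higher, 1 as reported, numbered 2 with no fold threshold or an unadjusted p and 3 with the lowest probe set. With 1 array left out, members lower in TF group 1 numbered 51 to 52, the median in TF group 2 ran over -2.85 to -2.66, members lower in TF group 2 against TF group 1 numbered 3 to 5, and in TF group 3 against TF group 2 members lower numbered 1 to 2 and higher 1 to 4. Members lower in TF group 2 against TF group 1 numbered 5 without replicate 1 of TF group 1 or replicate 1 or 3 of TF group 2, and in TF group 3 against TF group 1 members lower numbered 1 to 2, with 2 (Cenpa and Foxm1) without replicate 3 of TF group 3. Same-numbered samples did not deviate together (correlations of -0.02 to 0.05 over 18 pairs), so the numbers were not taken as pairs. With the replicate block 2 members were lower in TF group 2 against TF group 1 and 2 higher in TF group 3 against TF group 2, since Bub1 was not called, and the other counts did not change. In the simulation, 70.5% of log2 changes of 1 and 94.3% of log2 changes of 2 were recovered among probe sets with a mean log2 signal of at least 5, against 53.2% and 73.8% among all, and smaller changes were not simulated.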
